A study of Mus musculus with 2 samples.

Results

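The S100 proteins are a family of small calcium-binding proteins, and 10 of their genes were followed here in hair follicle stem cells. The members are S100a3, S100a4, S100a6, S100a8, S100a9, S100a10, S100a11, S100a13, S100a14 and S100a16, taken by symbol from a table of 42392 gene IDs, where each member stood on 1 ID. The series holds 2 samples of stem cells of the follicle bulge, sorted by flow cytometry from the skin of female mice as cells high in integrin alpha 6 and positive for CD34, after removal of cells with SCA1 or with markers of non-epidermal cells. The genotype of both samples was K15-CrePGR; Shh+/-, and both received RU486 for 8 days. K15-CrePGR is a Cre recombinase fused to the progesterone receptor, driven by the keratin 15 promoter and switched on by the ligand RU486. The titles call both samples controls. The levels below are those of the sample from anagen II-III, the early growth phase of the follicle. The telogen sample, from the resting phase, was not analysed here, because no column name of the table fits it alone, so growth and rest were not compared. Neither the age nor the number of animals behind the library is given in the labels.

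Each S100 protein carries a pair of EF-hands, helix-loop-helix folds that hold calcium, and most work as dimers that expose a binding face when calcium is bound. Inside cells they bind annexins, cytoskeletal proteins and chaperone-linked enzymes, and some are released and act on receptors such as RAGE and TLR4. In skin, several are made by keratinocytes, and S100A8 with S100A9 is best known from neutrophils and from wounded or inflamed epidermis. Most of the genes lie on the edges of the epidermal differentiation complex, a gene cluster that also holds the proteins of the cornified layer.

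The library had no replicate, so no level carries an error, no test was possible, and the order of close levels cannot be judged. Levels are given in TPM, a measure of transcripts scaled by transcript length and by the library's total, and the read depth behind them is unknown. Defining genes of the labelled cell type were present. All 12 bulge and basal genes listed were at 10 TPM or more, Krt15 at 3364, Cd34 at 132 and Lhx2 at 171 TPM. Markers of other cells of the skin were detected too. All 9 fibroblast genes listed reached 1 TPM, led by Col3a1 at 287 and Col1a1 at 278 TPM, as did 7 of 9 macrophage and Langerhans genes, 8 of 9 melanocyte and Schwann genes, 3 of 5 endothelial genes, led by Plvap at 4.65 TPM, and 3 of 16 neutrophil and monocyte genes. Among all 20723 protein-coding genes, 56.1% reached 1 TPM and 31.9% reached 10 TPM. Of 11 cornified envelope and late epidermal genes listed, 7 reached 1 TPM, led by Krtdap at 769, Sbsn at 359 and Krt10 at 138 TPM. Fibroblasts also express S100a6, S100a10 and S100a11. The part of other cells, differentiating keratinocytes included, in the members' levels was not tested.

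The 100 bases directly before the annotated start are given here for 4 members as examples, from S100a6, the highest, to S100a8, among the lowest. Their likeness was not measured. They come from RefSeq's GRCm38.p6 annotation and are read 5′ to 3′ on the plus strand. The positions are chr3:90612794-90612893 for S100a6, chr3:93520396-93520495 for S100a11, chr3:90603670-90603769 for S100a4 and chr3:90668971-90669070 for S100a8. Capitals mark the letters TATAAA (the TATA box), GGGCGG (a GC box) and TGANTCA (the AP-1 motif).
S100a6: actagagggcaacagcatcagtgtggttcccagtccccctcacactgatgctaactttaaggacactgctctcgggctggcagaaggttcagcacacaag
S100a11: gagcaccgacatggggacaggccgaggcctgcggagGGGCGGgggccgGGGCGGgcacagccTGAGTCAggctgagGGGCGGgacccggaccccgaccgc
S100a4: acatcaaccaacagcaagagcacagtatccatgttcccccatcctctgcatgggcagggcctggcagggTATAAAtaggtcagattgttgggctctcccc
S100a8: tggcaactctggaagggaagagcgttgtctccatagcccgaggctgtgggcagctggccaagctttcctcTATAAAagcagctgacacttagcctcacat
S100a4 and S100a8 both carried TATAAA, starting 31 and 30 bases before the start, yet their levels were 153 and 1.38 TPM. S100a11 carried GGGCGG at 3 places and TGANTCA 38 bases before its start, with a second TGANTCA farther out, at 136 bases. The stretch shown for S100a6 held none of these letters. A match describes the letters only and was not tested for use.

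Over the 250 bases before each start, both strands were searched in the 8 members that the promoter table holds, which have 12 listed starts. TATAAA was found before 3 of the 12 starts (1 each of S100a3, S100a4 and S100a8), and in 12.4% of the 32851 promoters of the table. GGGCGG was found before 4 of the 12 (1 each of S100a3, S100a9, S100a11 and S100a16), a share close to the 32.7% of all promoters. TGANTCA was found before 2 of the 12 (S100a11 and S100a16), against 6.75%, and TTGCNNAA, a C/EBP motif, before 1 of the 12 (S100a9), against 9.56%. Counts this small say nothing about the family as a whole. No matches in the members overlapped each other. In S100a9 the letters TATAAA begin at base 1 of the listed transcript, so they fall just outside the window. S100a3 has 4 listed starts and S100a16 has 2, and the data do not show which were used.

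The 10 members spanned 3 tiers in the anagen library. S100a6, S100a11, S100a14, S100a10, S100a16 and S100a4 were above 100 TPM, S100a3 and S100a13 were at 30.3 and 25.8 TPM, and S100a8 and S100a9 were close to 1 TPM. At 1 TPM or more stood 9 of the 10, against 56.1% of 20723 protein-coding genes, at 5 TPM or more 8, against 42.5%, and at 10 TPM or more 8 again, against 31.9%. At 100 TPM or more stood 6, against 3.48%. The median of the members was 256 TPM, and that of all protein-coding genes was 2.45 TPM. Because the members were picked with earlier results of these data known, these shares and this median do not describe the whole family. Among the 8 S100 genes left out, the middle level was 0.265 TPM and 3 reached 1 TPM. Taking all 18 S100 genes together, the middle level was 15.9 TPM. Nuclear protein-coding genes matched by symbol held 47.8% of all TPM. The members together made up 3569 TPM, which was 0.357% of all TPM and 0.747% of the TPM of nuclear protein-coding genes. The 3 highest held 72.2% of that sum.

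**Figure D1:**
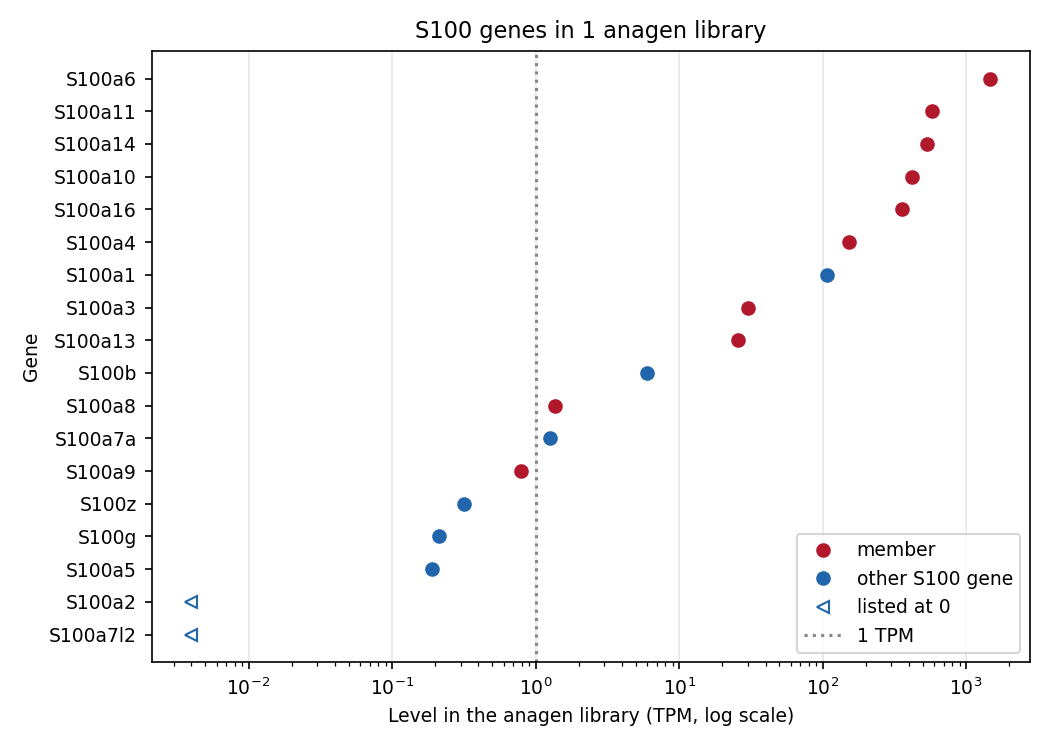
Level of each S100 gene of the table (TPM, log scale) in the 1 anagen library, with members in red and the other S100 genes in blue. Points are single values without error, and open triangles mark S100a2 and S100a7l2, which are listed at 0. S100a6 at 1463 TPM lies far to the right of S100a9 at 0.787 TPM.

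S100a6, or calcyclin, a cytosolic protein that binds calcyclin-binding protein and other chaperone-linked partners, led the family at 1463 TPM (ENSMUSG00000001025, GRCm38 chromosome 3, 90612894 to 90614414). It ranked 38th among protein-coding genes and was level with the basal keratin gene Krt14 at 1464 TPM. Krt15, the keratin that marks the bulge, was 2.30-fold higher. S100a6 alone held 41.0% of the members' sum and was 2.52-fold above the next member. The partner gene Cacybp stood at 44.3 TPM, so S100a6 was 33.0-fold higher. Ppp5c, which encodes another partner of the S100A6 protein, stood at 66.1 TPM.

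S100a11 and S100a10, both partners of annexins, were also among the high members. S100a11, which binds annexin A1, stood at 581 TPM (ENSMUSG00000027907, chromosome 3, 93520496 to 93526288). S100a10, or p11, which has lost calcium binding and forms a tetramer with annexin A2 at the membrane, stood at 420.0 TPM (ENSMUSG00000041959, chromosome 3, 93555117 to 93564645). Their annexins differed in order. Anxa2 was at 683 TPM, 1.63-fold above S100a10, while Anxa1 was at 208 TPM, 0.359 times the level of S100a11. The other annexin genes listed were lower, Anxa5 at 65.5, Anxa6 at 60.1 and Anxa11 at 25.2 TPM. Ahnak, a very large scaffold protein that the S100A10 and annexin A2 complex binds, was at 43.8 TPM.

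S100a14 and S100a16, a pair of epithelial members that lie next to each other, were close in level. S100a14 stood at 534 TPM (ENSMUSG00000042306, chromosome 3, 90526849 to 90528837) and S100a16 at 359.6 TPM (ENSMUSG00000074457, chromosome 3, 90537254 to 90543151). S100a14 was 1.48-fold above S100a16, and they ranked 117th and 172nd among protein-coding genes. With 1 library, no spread is known against which to set that ratio. S100a13, on their other side, was far lower.

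**Figure D2:**
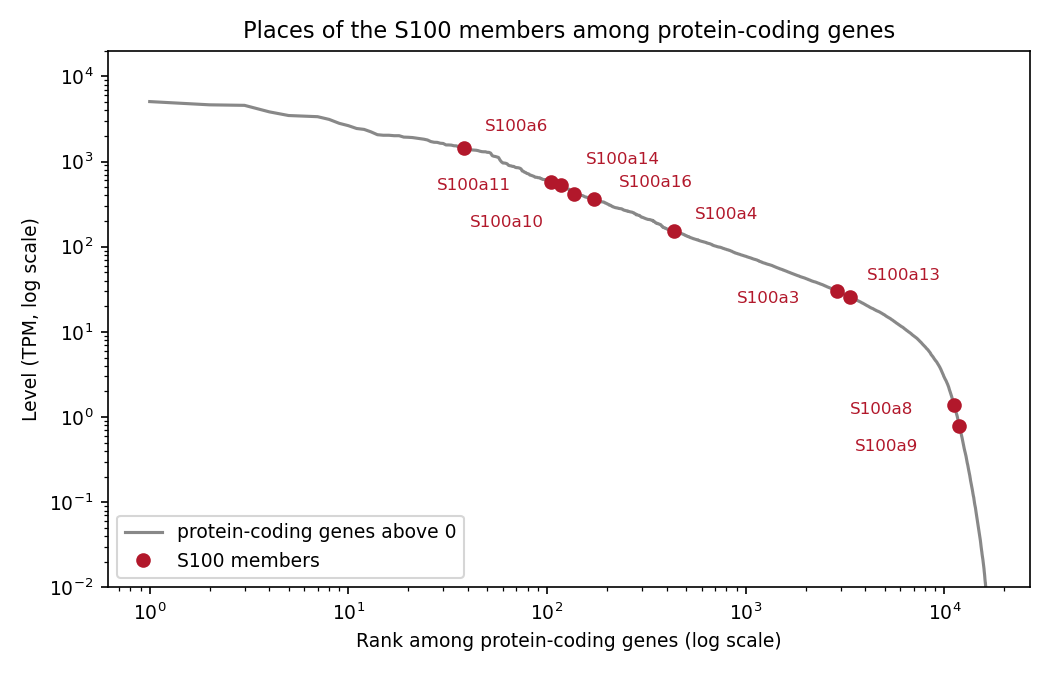
Level (TPM, log scale) of each protein-coding gene above 0 against its rank (log scale) in the anagen library, as a grey line, with the 10 members as red points. The 5 highest members lie between ranks 38 and 172, and S100a8 and S100a9 lie on the steep end of the curve at ranks 11199 and 11898.

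S100a4, which binds non-muscle myosin IIA and is also known as fibroblast-specific protein, stood at 153 TPM (ENSMUSG00000001020, chromosome 3, 90603770 to 90606045) and ranked 435th. The myosin gene Myh9 was at almost the same level, 145 TPM. Fibroblasts and leukocytes are known to express S100a4, and their markers were present to unlike degrees. The fibroblast genes listed ranged from Pdgfra at 1.44 TPM, whose protein was used to exclude cells, to Col3a1, and they summed to 909.6 TPM. Among macrophage and Langerhans genes, which ranged from 0.102 to 49.5 TPM, Epcam, also an epithelial gene, was highest, followed by Cd74 at 13.2, C1qa at 5.11 and H2-Ab1 at 5.002 TPM. Lyz2, of monocytes and neutrophils, was at 10.02 TPM and Ptprc, the gene of the excluded marker CD45, at 0.264 TPM. The part of fibroblast or leukocyte RNA in the S100a4 level was not tested.

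S100a3 and S100a13 formed the middle tier. S100a3, a cysteine-rich protein of the hair cuticle, stood at 30.3 TPM (ENSMUSG00000001021, chromosome 3, 90560356 to 90602706). Padi3, the enzyme that citrullinates S100A3 in the hair shaft, was at 14.4 TPM, and Padi1 and Padi2, related enzymes, were at 0.392 and 0.0926 TPM. Of 9 measured genes listed for hair cuticle and shaft, 6 reached 1 TPM, with Hoxc13 at 40.0, Krt35 at 28.7 and Tchh at 20.9 TPM highest and the cuticle keratin genes Krt32 and Krt82 at 4.74 and 0.718 TPM. Of all protein-coding genes, 56.1% reached 1 TPM. Whether S100a3 came from sorted stem cells or from hair-forming cells was not tested. The annotated span of S100a3, 42351 bases, contains S100a2, which is listed at 0.

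S100a13, which takes part in the release of FGF1 and interleukin 1 alpha by a route that bypasses the secretory pathway, stood at 25.8 TPM (ENSMUSG00000042312, chromosome 3, 90514233 to 90524581). Of its cargo genes, Fgf1 stood at 4.72 TPM, above the median of 2.45 TPM over all protein-coding genes, and Il1a was far lower at 0.0517 TPM. Syt1, of the same release complex, was at 0.113 TPM. The annotated span of S100a13 overlaps that of S100a1 on the other strand by 98 bases. The listed S100a13 start used for the promoter search lies farther in, outside that overlap. S100a1 stood at 106 TPM, 4.13-fold above S100a13. Whether counting used strand is not given in the sources used here, so reads in that overlap cannot be assigned with certainty.

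S100a8 and S100a9, the subunits of calprotectin, were the lowest members. S100a8 stood at 1.38 TPM (ENSMUSG00000056054, chromosome 3, 90669071 to 90670034), just above the 1 TPM threshold, and S100a9 at 0.787 TPM (ENSMUSG00000056071, chromosome 3, 90692630 to 90695721), just below it. S100a6 was 1063-fold above S100a8 and 1859-fold above S100a9. Calprotectin genes are strongly expressed by neutrophils, and the defining genes of those cells were at or near 0. Elane, Ngp, Camp and Retnlg were listed at 0, Ly6g was at 0.0942 TPM, and 3 of 16 neutrophil and monocyte genes reached 1 TPM, namely Lyz2 at 10.02, Lcn2 at 4.86 and Cd14 at 1.10 TPM. The share at 1 TPM or more over all protein-coding genes was 56.1%. The receptor gene Tlr4 was at 0.513 TPM and Ager, which encodes RAGE, at 2.62 TPM. Bsg and Nptn, whose related membrane proteins are receptors for extracellular S100A9 and S100A8, were far higher at 252 and 134 TPM, and Alcam and Mcam, which encode further proposed receptors, stood at 88.8 and 23.5 TPM.

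Keratinocytes also raise S100a8 and S100a9 on wounding, and the genes known to rise with them were unlike each other. Krt6a stood at 73.9 TPM and Krt17, which the bulge also expresses, at 1679.9 TPM. Krt16 and Sprr1b were at 2.65 and 0.870 TPM, Il1b and Il36a at 0.678 and 0.0772 TPM, and Defb3 was listed at 0. Immediate early genes were high, Fos at 237 and Jun at 233 TPM. Of the 11 stress and activation genes listed, 6 reached 1 TPM, a share close to the 56.1% of all protein-coding genes.

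**Figure D3:**
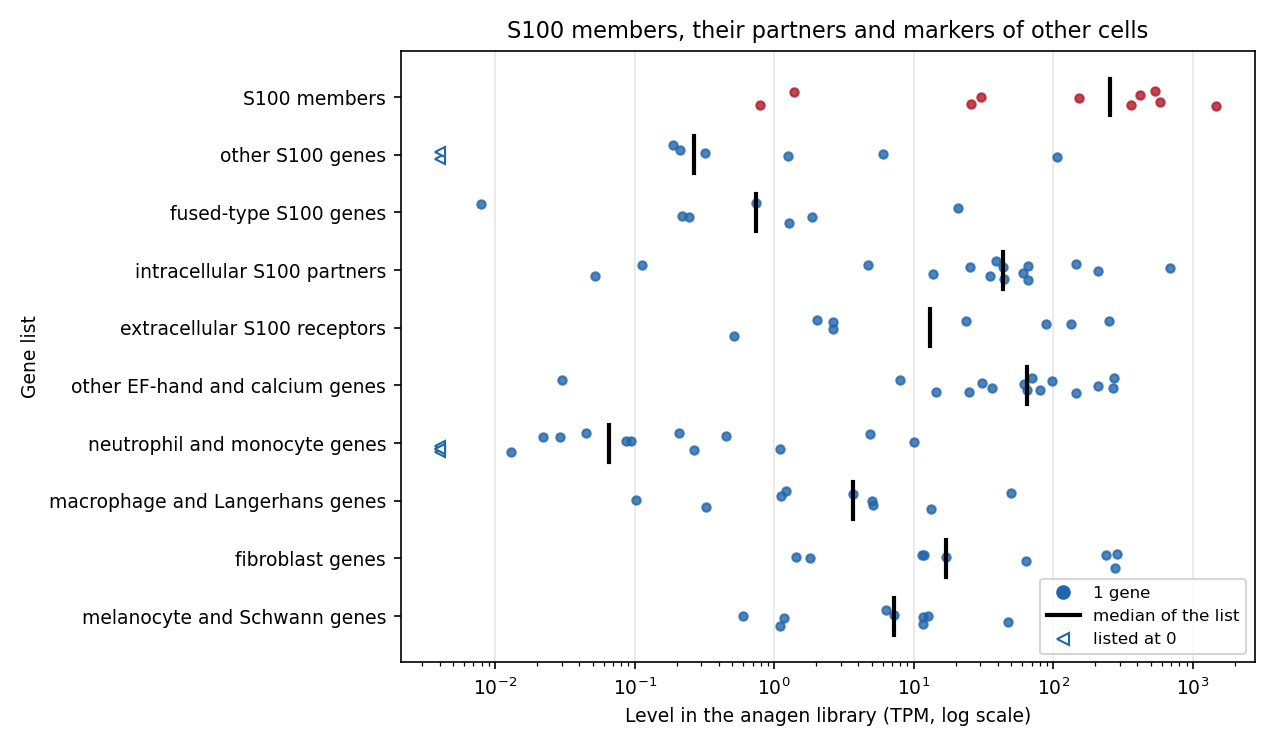
Level (TPM, log scale) of each gene in 10 lists, in the anagen library, with the list's median as a black bar and genes listed at 0 as open triangles. The members span from 0.787 to 1463 TPM, and 12 of 16 neutrophil and monocyte genes are above 0, with a median of 0.0655 TPM.

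The 8 other S100 genes of the table were mostly low. S100a1, known from muscle and also an epithelial gene, was the exception at 106 TPM, between S100a4 and S100a3. S100b, known from Schwann cells and melanocytes, stood at 6.02 TPM on chromosome 10. Of 9 melanocyte and Schwann genes listed, 8 reached 1 TPM, among them the melanocyte genes Dct at 11.7 and Pmel at 11.6 TPM, and their part in the S100b level was not tested. S100a7a, the mouse relative of psoriasin, was at 1.26 TPM, S100z at 0.317, S100g at 0.212 and S100a5 at 0.189 TPM, and S100a2 and S100a7l2 were listed at 0. Over all 18 S100 genes, 12 reached 1 TPM, against 56.1% of all protein-coding genes. The fused-type relatives, long proteins with an S100 domain at one end, were low apart from Tchh, which is also on the hair cuticle and shaft list. Of 7, 3 reached 1 TPM, Tchh at 20.9, Crnn at 1.88 and Flg2 at 1.28 TPM, and Flg was lowest at 0.00794 TPM.

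Position along chromosome 3 placed the members in 2 groups with a stretch of mostly low genes between them. From S100a1 to S100a9, 12 S100 genes, 8 of them members, lay within 185 kb with no other protein-coding gene between them. S100a11 and S100a10 lay 2.82 Mb farther on, 28.8 kb apart. In the stretch between S100a9 and S100a11, which holds many late cornification genes and S100a7l2, 54 of the 56 protein-coding genes were in the table. Their median was 0.0785 TPM, 11 reached 1 TPM, against 56.1% of all protein-coding genes, and 18 were listed at 0. Of 11 cornified envelope and late epidermal genes listed, some within this stretch and some elsewhere, 7 reached 1 TPM, led by Krtdap at 769, Sbsn at 359 and Krt10 at 138 TPM. The highest genes of the stretch itself were Sprr4 at 115 TPM, Sprr1a at 34.0, Tchh at 20.9 and Prr9 at 13.9 TPM. All but S100a8, S100a9, S100a3 and S100a13 among the members were above every gene of that stretch.

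Levels also changed sharply between direct neighbours within the 185 kb. S100a4 at 153 TPM was followed by S100a5 at 0.189 TPM, then by S100a6 at 1463 TPM, the highest of the family, and then by S100a7a at 1.26 TPM. On this edge, the last 3 S100 genes, S100a7a, S100a8 and S100a9, were all at or under 1.38 TPM.

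**Figure D4:**
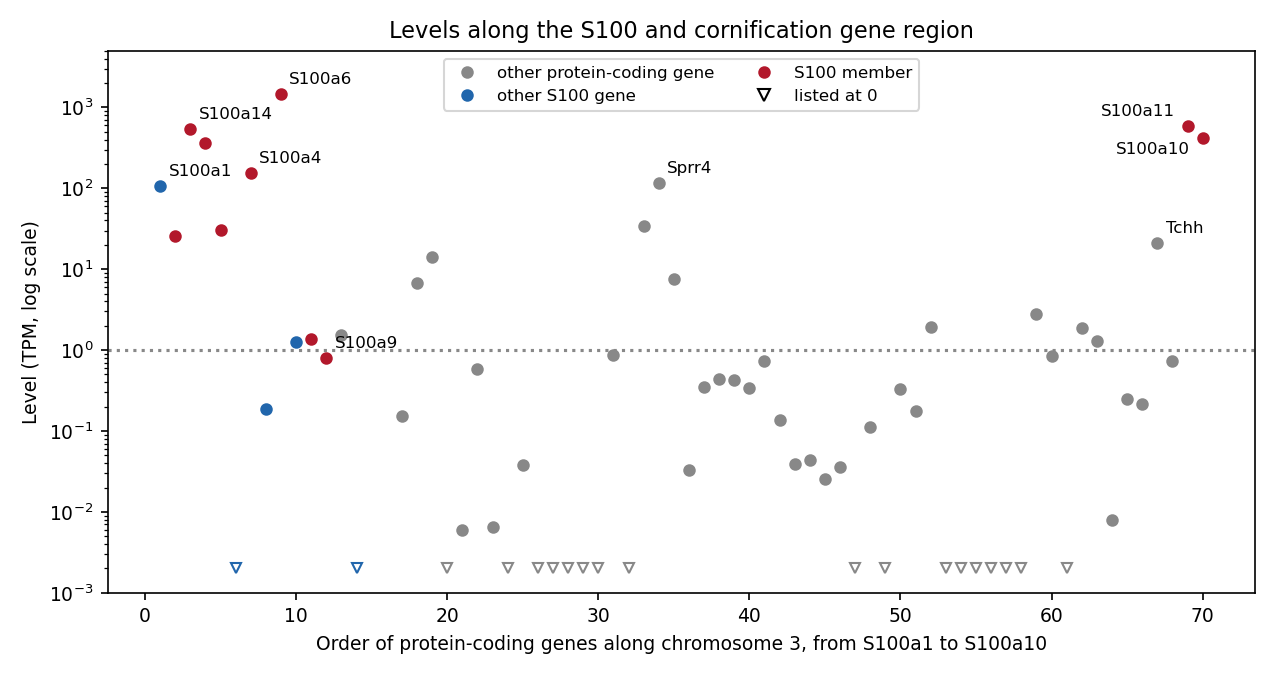
Level (TPM, log scale) of the protein-coding genes of chromosome 3 in their order from S100a1 to S100a10, in the anagen library. Members are red, other S100 genes blue and other genes grey, and open triangles mark genes listed at 0. High members stand at both ends, and the stretch between has a median of 0.0785 TPM.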

How the data were processed

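RNA from sorted cells was read as paired ends on an Illumina HiSeq instrument after an Illumina mRNA library kit, per the labels' protocols. The authors deposited TPM, per the file headers. Bowtie2 2.2.9, RSEM 1.2.30 and build mm10 were used, per the submitters' processing notes, with the annotation and strand setting not given in the sources used here. The column numbered 1 was matched to the anagen sample, whose title alone carries that number, and 11 other columns were not used. Each gene ID was used once, and where a symbol had several IDs the highest was taken. Gene types, positions and promoters came from RefSeq tables of GRCm38.p6, matched by symbol. Short transcripts such as those of S100 genes give fewer reads per TPM than long ones, and TPM keeps no read depth, so no interval was set. The planned comparison of protein sequences was not made. The members, lists and thresholds were chosen with earlier results of these data known. Any list gene could be named, with at most the 4 highest and those at 0 where a list was summarised, and genes with a stated relation to a member were added once their values had been seen. Some list members are not reported here. Other scalings, filters and summaries were tried. Python 3.11.15, pandas 2.3.3, numpy 2.4.6 and matplotlib 3.10.9 were used.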

Additional observations from a re-analysis of the deposited data

How the results depend on the processing

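Rescaling multiplied every level by the same factor and left their order and ratios as they were. Without mitochondrial and the 50 highest genes, the members' sum was 6184 TPM, their median 444 TPM and the share at 1 TPM or more 100%. Over nuclear protein-coding genes these were 7469 TPM, 536 TPM and 100%, since S100a9 then passed 1 TPM. The mean of log2 levels gave 89.7 TPM with a pseudocount of 1 and 79.9 TPM with 0.1, in place of the median of 256 TPM. The median was 359.6 TPM for members at 1 TPM or more, 389.8 TPM for those at 5 TPM or more, 389.8 TPM without S100a8 and S100a9, and 15.9 TPM over all S100 genes. The share was 80% with a threshold of 5 TPM and 80% with 10 TPM, and 66.7% over all S100 genes at 1 TPM. Summing gene IDs of 1 symbol changed no value. Depth is unknown, so how far S100a8 and S100a9 lie above no reads could not be judged.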

Other observations

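Other calcium-handling genes ranged widely in the same library. Of 15 EF-hand, calpain, pump and channel genes chosen for the list, 14 were at 1 TPM or above, where 56.1% of all protein-coding genes were, and the median of all 15 was 64.5 TPM. The calmodulin gene Calm2 stood at 272 TPM, Capns1, the small calpain subunit, at 268 TPM and Calml3, a calmodulin-like gene of epithelia, at 145 TPM. None of these 15 reached the level of S100a16. The calcium pump genes Atp2c1 and Atp2a2, of the Golgi and the endoplasmic reticulum, were at 70.0 and 61.2 TPM, and the calcium-sensing receptor gene Casr was at 0.0304 TPM.

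Among transglutaminase genes, whose enzymes crosslink cornified-layer proteins, Tgm5 stood at 23.9 TPM, Tgm1 at 1.66 TPM and Tgm3 at 1.02 TPM. S100pbp, which encodes a binding protein of S100P, was at 13.7 TPM. Of 17 genes listed around the S100 genes on chromosome 3, S100a11 included, 13 reached 1 TPM, against 56.1% of all protein-coding genes. The highest after S100a11 were Chtop, Ilf2, Slc27a3 and Snapin at 79.7, 46.0, 27.2 and 23.0 TPM. Gatad2b and Npr1 were lower at 12.6 and 2.58 TPM, and Lelp1 was listed at 0.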
